A study of Mus musculus with 18 samples.

Results

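The 36 genes described here were chosen for the endothelial cells that line the blood vessels of the brain. Other cell types may express them too. The set holds 10 barrier and transport genes, 21 pan-endothelial genes, which mark endothelium in most organs, and 5 other genes enriched in brain endothelium. A probe set, the group of oligonucleotides on an array that reads 1 transcript, was taken when it is annotated to exactly 1 of these genes under a current or former symbol. This gave 34 of the 12384 genes of the cortex A chip (51 of 22626 probe sets), 3 of the 9593 genes of the cortex B chip (Flt1, Ocln and Sox7, by 3 of 22511 probe sets) and 34 of the 18161 genes in the table of samples titled rest (54 of 45037 probe sets). Ly6a has no probe set of its own, and that of Ly6c1 is shared with Ly6c2, so neither gene has a value. The rule that picks the probe sets uses no measured value, but the genes themselves were chosen with earlier results of these data known.

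The samples are total RNA of mouse brain at postnatal day 7, in 6 groups of 3 arrays. The knockout animals carry Cre under the nestin promoter, 1 Brca1 allele with exons 5 to 13 floxed, and 1 Brca1 null allele made by a reversed neo insertion at exon 11, and the controls are labelled wildtype with no allele or transgene named. The same 2 genotypes were put on the A chip and the B chip as cortex and on another kind of array as rest, whose source is given only as P7 brain. Brca1, the breast cancer susceptibility gene that acts in DNA repair, was read by 1 probe set with a signal on every array. On the A chip this probe set gave 38, 36.9 and 48.9 in the wild type and 51.4, 44 and 61.4 in the knockout, and in rest 101.8, 111.8 and 114.3 against 118.5, 86 and 134.8. The groups overlapped in both tables, and since the exons it reads are not given, it does not check the genotype. The Y-linked transcript Eif2s3y was listed on knockout replicates 1 and 2 of every table and on no wild-type array, so knockout replicate 3 is the only knockout array without it. Of the probe sets, an array listed a signal for 54% to 58% (A chip), 33.6% to 42.6% (B chip) or 49.2% to 51.6% (rest), and the other cells are blank without a stated reason.

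Endothelial cells of the brain are joined by tight junctions, carry few transport vesicles, and move glucose, hormones and amino acids through dedicated carriers while pumps return drugs to the blood. They acquire these properties under signals from neural progenitors, pericytes and astrocytes, among them ligands of the Wnt family and Norrin. Endothelial cells enter the brain from outside the neural tube, while the nestin promoter is best known from neural progenitors. Which cells had recombined was not measured here.

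The promoters of genes described below are shown because a shared motif would be visible in them. RefSeq windows of 300 bases, from 250 before to 50 after the annotated start, were available for 25 of the 36 genes (33 windows, build GRCm38.p6). Each is printed 5′ to 3′ on the strand of its gene, with matches to the searched motifs in capitals. Cldn5 lies at chr16:18776597-18776896 (plus strand), Slc2a1 at chr4:119108495-119108794 (plus strand), Cd34 at chr1:194938571-194938870 (plus strand) and Itm2a at chrX:107403311-107403610 (minus strand).
Cldn5: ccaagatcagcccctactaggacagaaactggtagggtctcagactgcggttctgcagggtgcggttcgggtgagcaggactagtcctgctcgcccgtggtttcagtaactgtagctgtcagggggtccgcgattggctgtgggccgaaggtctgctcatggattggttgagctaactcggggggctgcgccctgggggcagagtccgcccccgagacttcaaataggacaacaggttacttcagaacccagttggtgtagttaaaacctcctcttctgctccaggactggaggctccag
Slc2a1: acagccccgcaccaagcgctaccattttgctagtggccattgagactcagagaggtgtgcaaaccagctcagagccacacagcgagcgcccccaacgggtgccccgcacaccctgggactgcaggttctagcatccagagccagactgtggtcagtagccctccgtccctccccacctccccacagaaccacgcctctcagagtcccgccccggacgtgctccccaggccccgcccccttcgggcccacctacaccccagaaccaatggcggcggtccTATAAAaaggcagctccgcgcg
Cd34: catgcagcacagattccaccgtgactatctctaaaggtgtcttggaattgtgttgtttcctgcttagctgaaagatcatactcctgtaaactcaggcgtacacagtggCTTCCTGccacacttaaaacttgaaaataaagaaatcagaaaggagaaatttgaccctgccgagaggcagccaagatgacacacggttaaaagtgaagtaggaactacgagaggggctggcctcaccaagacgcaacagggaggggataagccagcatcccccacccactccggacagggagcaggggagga
Itm2a: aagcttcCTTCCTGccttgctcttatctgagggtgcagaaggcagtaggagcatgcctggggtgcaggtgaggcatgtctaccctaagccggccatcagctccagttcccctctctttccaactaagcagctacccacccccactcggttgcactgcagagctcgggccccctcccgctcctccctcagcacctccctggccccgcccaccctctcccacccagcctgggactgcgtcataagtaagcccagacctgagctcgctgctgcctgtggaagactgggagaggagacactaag

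The motifs searched, on both strands, were CAGGAAG and CCGGAAG for ETS factors, AACAAT for SOX factors and TATAAA for the TATA box, and none of these 4 words contains another. CAGGAAG or its reverse complement was in 8 of the 33 windows (24.2%), against 13.3% of all 32851 windows. Among the 6 windows of genes that passed the test in cortex it was found for Cd34 (bases 109 to 115 of the window) and Itm2a (bases 8 to 14), as CTTCCTG in both. TATAAA was in 9 windows (27.3%, against 13.6% of all), and in Slc2a1 it stands at bases 279 to 284, after the annotated start. AACAAT was in 3 (9.1%, against 10.7%) and CCGGAAG in 1 (3.0%, against 8.9%). The Cldn5 window holds none of these letters. These matches describe the sequences and were not tested.

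In cortex on the A chip, transcripts of 8 endothelial genes were higher in the knockout, and those of the other 21 tested did not pass. Of the 41 probe sets tested (29 genes), 10 passed the test, which is 24.4% of them, and all 10 were higher, against 3.02% of all 12065 probe sets called in either direction and 2.3% called higher. The 8 genes were Cldn5, Slc2a1, Cd34, Cdh5, Tie1, Ramp2, Pltp and Itm2a, with rises of 1.39-fold to 1.76-fold. A fit that also modelled the sex marker Eif2s3y rests on knockout replicate 3 alone, so no calls are read from it. Its median log2 change was 0.28 over 39 probe sets, against -0.0017 over all. The test was a moderated linear model (limma) on log2(scaled signal + 16), which understates the change of dim probe sets, and a probe set passed at a Benjamini-Hochberg adjusted p under 0.05 over the whole table. All log2 changes below are knockout minus wild type on this scale, with the standard error (SE) of the fit. The median over the 41 probe sets was 0.35, against -0.0091 over all probe sets tested, and 37 of the 41 had a change above 0. At an unadjusted p under 0.05 there were 24 probe sets, all higher (58.5%, against 8.99% of all). In 25 probe sets every knockout array lay above every wild-type array (61%, against 11.6% of all), and in 1, for Tfrc, every knockout array lay below (2.4%, against 10.8%). In bulk tissue, more endothelial cells, more RNA per endothelial cell and RNA from other cell types cannot be told apart.

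Of the barrier genes, Cldn5 and Slc2a1 rose in knockout cortex. Cldn5 encodes claudin-5, the main claudin of endothelial tight junctions. Its signal was 525.7, 532.3 and 597.3 in the wild-type cortices and 763.2, 827.5 and 724.7 in the knockout. All 3 knockout arrays lay above the wild type, and the log2 change was 0.47 (SE 0.0864, limma adjusted p = 0.0133), or 1.39-fold. Slc2a1 encodes the glucose transporter GLUT1, and 1 of its 3 probe sets passed, reading 191.4, 165.5 and 193.8 in the wild type and 265.8, 280.3 and 246.9 in the knockout (log2 change 0.49, SE 0.109, limma adjusted p = 0.0366). This call did not hold when any 1 of the 6 arrays was left out. The other Slc2a1 probe sets also had knockout arrays above wild-type arrays without passing, with log2 changes of 0.46 and 0.38 (limma adjusted p = 0.0806 and 0.126).

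Slco1c1, a carrier of thyroxine, gave 958, 866.8 and 992.3 in the wild-type cortices and 1245.1, 1326.5 and 1041.1 in the knockout. The groups did not overlap, and the log2 difference of 0.35 (SE 0.0973) did not pass (limma adjusted p = 0.0951). Abcb1a encodes the efflux pump P-glycoprotein, and its brighter probe set read 51.5, 78 and 54.2 in the wild type and 89.5, 90.7 and 58.6 in the knockout. Knockout replicate 3 lay within the wild-type range, and the log2 change was 0.30 (SE 0.188, limma adjusted p = 0.483). The second Abcb1a probe set was listed only on knockout replicates 2 and 3, at 34.5 and 28.1.

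The other barrier and transport genes did not pass in cortex. Occludin (Ocln), a membrane protein of tight junctions, read 55.3, 85.9 and 71 in the wild type and 77, 135.1 and 136.7 in the knockout, with overlapping groups and a log2 difference of 0.59 (SE 0.209, limma adjusted p = 0.194). The efflux pump gene Abcg2 had log2 0.45, the glutamine carrier gene Slc38a5 0.38 and the junction scaffold gene Tjp1 0.35, with knockout arrays above wild-type arrays in each (limma adjusted p = 0.102, 0.1 and 0.147). The transferrin receptor gene Tfrc was the lowest of all 29 genes: its brighter probe set read 720.1, 699 and 769.3 in the wild type and 666, 693.8 and 578.7 in the knockout, a log2 difference of -0.17 (SE 0.0886, limma adjusted p = 0.383). Its dimmer tested probe set gave -0.41 with overlapping groups (SE 0.201, limma adjusted p = 0.36). The organic anion transporter gene Slco1a4 was blank on all 6 arrays.

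**Figure D1:**
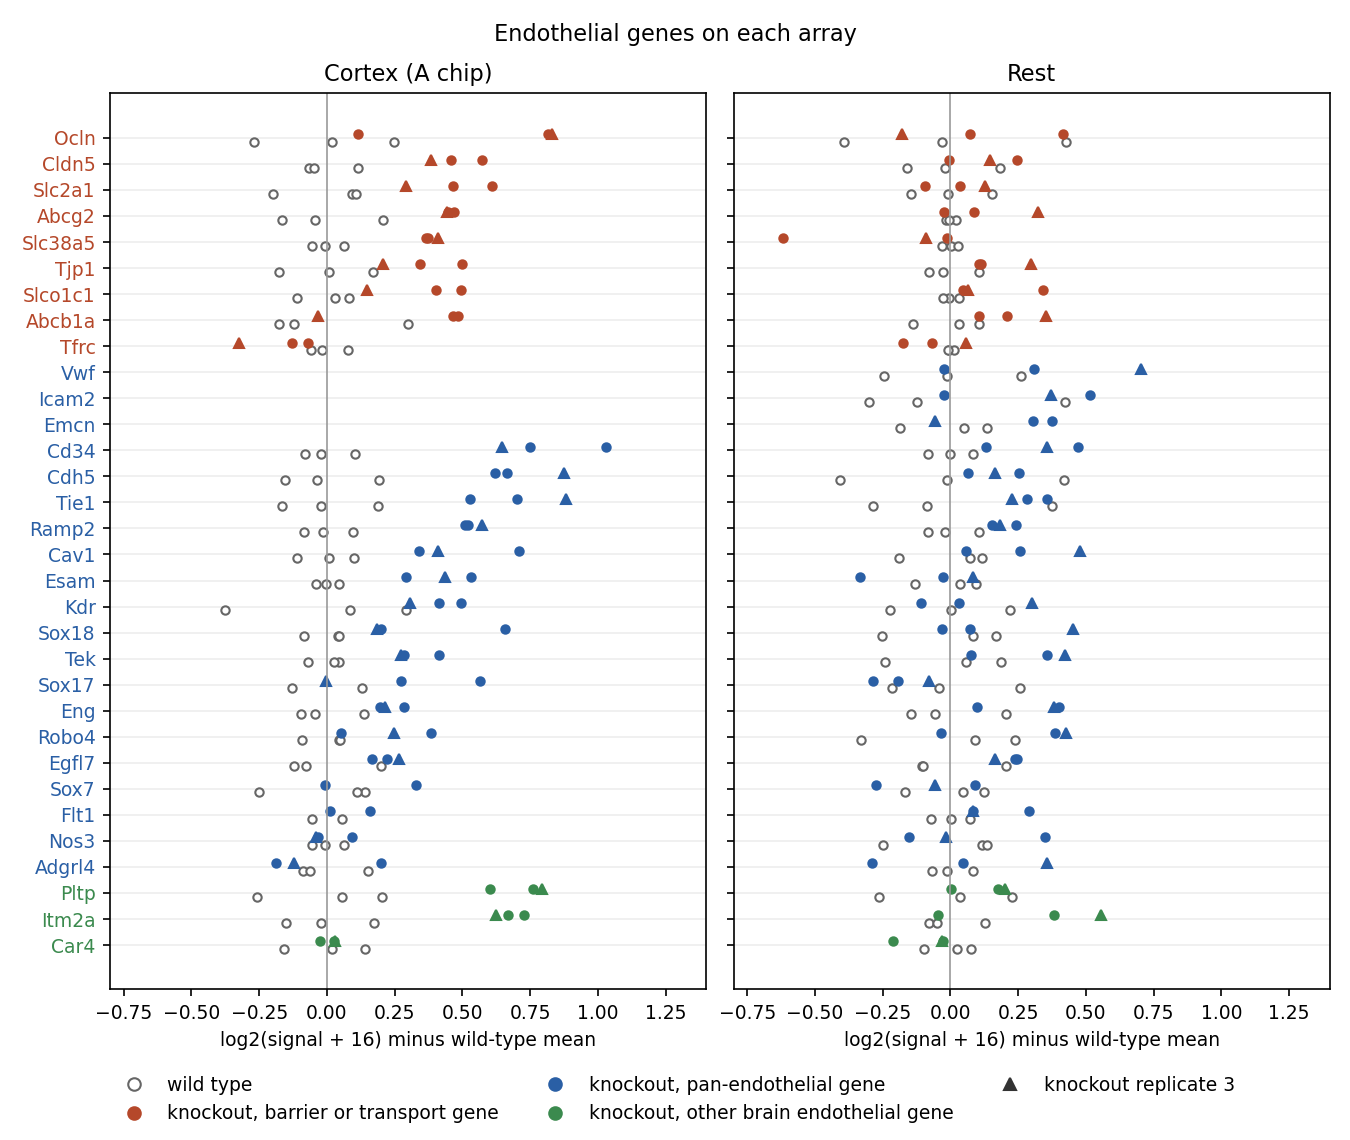
Signals of the endothelial genes on each array of the cortex A chip (left) and the rest table (right), as log2(signal + 16) minus the wild-type mean of the gene. Open circles are wild-type arrays and filled symbols knockout arrays, coloured by role, with knockout replicate 3 as a triangle; each gene is shown by its brightest tested probe set in cortex, which is also used in rest where it was tested there. In cortex all 3 filled symbols lie above the open ones for Cldn5, Cd34, Cdh5, Tie1, Ramp2, Pltp and Itm2a, while in rest they mix with the open circles for most genes.

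The pan-endothelial genes that rose in cortex were Cd34, Cdh5, Tie1 and Ramp2, out of 17 tested. Cd34, a sialomucin on the surface of endothelial and blood progenitor cells, had the largest change by brightest probe set. It read 67.1, 78.6 and 70.6 in the wild type and 132, 163.7 and 121.6 in the knockout, a log2 difference of 0.81 (SE 0.142, limma adjusted p = 0.0106). Every knockout array was above every wild-type array.

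Cdh5 encodes VE-cadherin, the cadherin of endothelial adherens junctions. Its brighter probe set gave 66.9, 74 and 89.4 in the wild type and 126, 130.3 and 153.4 in the knockout (log2 change 0.72, SE 0.142, limma adjusted p = 0.0198). The dimmer Cdh5 probe set disagreed, with 50.3, 37.5 and 46.9 against 58.4, 50.9 and 37.4, overlapping groups and a log2 difference of 0.085 (SE 0.169, limma adjusted p = 0.861).

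Receptor genes of the vessel wall followed. Tie1, an orphan receptor tyrosine kinase that modulates angiopoietin signalling, read 42.6, 37 and 51.7 in the wild type and 69.8, 80.7 and 93.5 in the knockout, without overlap (log2 change 0.70, SE 0.156, limma adjusted p = 0.0366). Ramp2, which pairs with the calcitonin receptor-like receptor to bind adrenomedullin, read 429.9, 377.5 and 396.8 in the wild type and 577, 582.7 and 604 in the knockout. This change of 0.53 (SE 0.0841, limma adjusted p = 0.00571) separated the groups fully.

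The angiopoietin receptor gene Tek read 95.8, 94.6 and 87.3 in the wild type and 128.5, 116.1 and 115.2 in the knockout. The groups were apart, and the log2 difference of 0.32 (SE 0.122) did not pass (limma adjusted p = 0.222). Kdr, which encodes VEGF receptor 2, read 179.5, 253.8 and 294.8 against 342.1, 322.1 and 298.1, with a log2 difference of 0.40 (SE 0.155, limma adjusted p = 0.228). The highest wild-type array lay just below the lowest knockout array. Flt1, the gene of VEGF receptor 1, had tested A chip probe sets at 0.086 and 0.057, with overlapping groups (limma adjusted p = 0.855 and 0.922). A further Flt1 probe set was listed on all 3 knockout arrays, at 86.4, 94.1 and 74.6, and on no wild-type array. The only Flt1 value of the B chip, where 0.281% of 7838 probe sets were called, was a log2 change of 0.083 (limma adjusted p = 0.993).

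Pecam1, the endothelial adhesion molecule most used as a vessel marker, was blank on all arrays of the A chip and of rest, so 1 of the 4 defining endothelial markers (Pecam1, Cdh5, Kdr and Tek) has no signal. Vwf, the von Willebrand factor gene, was listed in cortex at 43.2 on wild-type replicate 1 only and at 91.6, 74.1 and 106.8 on the knockout arrays. Icam2, an adhesion molecule, was listed at 64.9 on wild-type replicate 1 only and at 78.3, 83.5 and 90.4 on the knockout arrays. Both genes therefore had too few wild-type values for a test. Emcn, the endomucin gene, was listed on 1 knockout array.

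Among the pan-endothelial genes that did not pass, the log2 changes by brightest probe set ran from -0.036 for the adhesion receptor Adgrl4 to 0.49 for Cav1, the main protein of caveolae. Cav1 read 125.1, 147.3 and 137 in the wild type and 176.6, 232.9 and 186.3 in the knockout, with groups apart (SE 0.131, limma adjusted p = 0.0852). Esam, an adhesion molecule of endothelial junctions, read 202.2, 208.3 and 215.6 against 259.1, 309.1 and 287.8, also apart, with a log2 difference of 0.42 (SE 0.104, limma adjusted p = 0.0600). The probe sets of Adgrl4 disagreed, since the dimmer gave a log2 change of 0.57 over 3 wild-type and 2 knockout arrays (SE 0.155, limma adjusted p = 0.0945). The SOX transcription factors of arterial and lymphatic endothelium had log2 changes of 0.35 for Sox18, 0.28 for Sox17 and 0.16 for Sox7 (limma adjusted p = 0.289, 0.575 and 0.755). Eng, the endoglin gene, Robo4, a guidance receptor of endothelium, and Egfl7, a protein secreted by endothelial cells, had 0.23, 0.23 and 0.22 by brightest probe set (limma adjusted p = 0.367, 0.509 and 0.378). The nitric oxide synthase gene Nos3 stood at 0.0057 (SE 0.128, limma adjusted p = 0.989).

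Outside the barrier and pan-endothelial groups, Pltp and Itm2a rose in cortex by both of their probe sets. Pltp, which encodes the phospholipid transfer protein, read 476.5, 379.1 and 432.7 in the wild type and 748.9, 819.3 and 723.1 in the knockout by the probe set with the larger change (log2 change 0.81, SE 0.0983, limma adjusted p = 0.00112). The other gave 0.72 (SE 0.115, limma adjusted p = 0.00617). Itm2a, an X-linked gene for a membrane protein, read 574.8, 609.3 and 637 in the wild type and 949.9, 1005.7 and 919.1 in the knockout (log2 change 0.65, SE 0.0773, limma adjusted p = 0.00106). Its other probe set gave 0.67 (SE 0.0913, limma adjusted p = 0.00221). Every knockout array was above every wild-type array for these 4 probe sets, knockout replicate 3 included. Car4, a carbonic anhydrase of capillary endothelium, had log2 changes of 0.011 and -0.14 with overlapping groups (limma adjusted p = 0.975 and 0.73).

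The calls in cortex depended on the arrays. Whether they depended on sex could not be tested, since the sex-marker fit sets knockout replicate 3 alone against the wild type. In that fit 29 of 39 changes were above 0, and the median was 0.28 against -0.0017 over all probe sets. Among the probe sets called with all arrays, log2 changes rose from 0.70 to 0.88 for Tie1 and 0.72 to 0.88 for Cdh5. They also rose from 0.53 to 0.57 for Ramp2 and 0.72 to 0.79 for 1 Pltp probe set. They fell from 0.81 to 0.74 for the other Pltp probe set, 0.81 to 0.65 for Cd34 and 0.47 to 0.39 for Cldn5. They also fell from 0.49 to 0.40 for Slc2a1, and from 0.65 to 0.59 and 0.67 to 0.62 for Itm2a. Without wild-type replicate 1 the count was 6 of 39 (15.4%, with 1.91% of all probe sets called), and without knockout replicate 2 it was 5 of 38 (13.2%, with 1.61% of all called), against 10 with all arrays. The Slc2a1 call was lost in all 6 fits that left out 1 array, those of Cdh5 and Tie1 in 4, that of Cldn5 in 2 and that of Cd34 in 1, while Itm2a, Pltp and Ramp2 kept theirs in all 6. Slco1c1 gained a call without knockout replicate 3 (log2 change 0.45, limma adjusted p = 0.0323).

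In the rest table none of the 45 probe sets (32 genes) passed, against 0.313% of all 21407. By limma, 5 had an unadjusted p under 0.05, all higher in the knockout (11.1%, against 4.47% of all), and 36 had a change above 0. The median was 0.15, against 0.00095 over all probe sets, and in 8 the knockout arrays all lay above the wild type (17.8%, against 8.42% of all), while in none did they all lie below (against 9.13%).

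Cldn5 in rest read 1338.5, 1051.3 and 1159.7 in the wild type and 1399.5, 1173.4 and 1305.6 in the knockout. The groups overlapped, and the log2 change was 0.13 (SE 0.101, limma adjusted p = 0.721). The 3 Slc2a1 probe sets had changes of 0.024, 0.082 and 0.044 (limma adjusted p = 0.962, 0.82 and 0.919). Slco1c1 read 1226.8, 1209.5 and 1260.5 against 1564.6, 1272 and 1288.2, with groups apart through a narrow gap and a log2 difference of 0.15 (SE 0.0877, limma adjusted p = 0.606). Abcb1a had 0.22 and 0.53 by its brighter and dimmer probe sets (limma adjusted p = 0.65 and 0.333), the dimmer with 30.3 and 35.9 on 2 wild-type arrays and 51.6, 54.1 and 58.7 on the knockout arrays. Slco1a4 was listed on 3 arrays of rest, at 276.1 and 261.3 in the wild type and 275 in the knockout, too few for a test.

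Among the pan-endothelial genes in rest, Cd34 read 140.9, 160.2 and 150 in the wild type and 214, 165.8 and 196.9 in the knockout, with groups apart (log2 change 0.32, SE 0.135, limma adjusted p = 0.451). Ramp2 was also apart, at 716.3, 654.6 and 626.6 against 789.2, 741.5 and 757.3 (log2 change 0.19, SE 0.0808, limma adjusted p = 0.446). Cdh5, Tie1, Tek and Kdr overlapped between genotypes, with changes of 0.16, 0.29, 0.29 and 0.075 by brightest probe set (limma adjusted p = 0.844, 0.645, 0.581 and 0.905), and the dimmer Cdh5 probe set had -0.012 (limma adjusted p = 0.99). Vwf, listed on all 6 arrays here, had the highest change of any gene by brightest probe set, 0.33 (SE 0.206, limma adjusted p = 0.639), and Slc38a5 the lowest, -0.24 (SE 0.167, limma adjusted p = 0.678).

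The probe set with the lowest p in rest was that of Pltp with the larger cortical change. It read 859, 671.3 and 764 in the wild type and 948.1, 1059.4 and 929 in the knockout, a log2 difference of 0.35 (SE 0.101, limma adjusted p = 0.242), with groups apart. The other Pltp probe set gave 0.13 with overlap (limma adjusted p = 0.775). Itm2a gave 0.30 and 0.19 with overlap (limma adjusted p = 0.488 and 0.627).

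**Figure D2:**
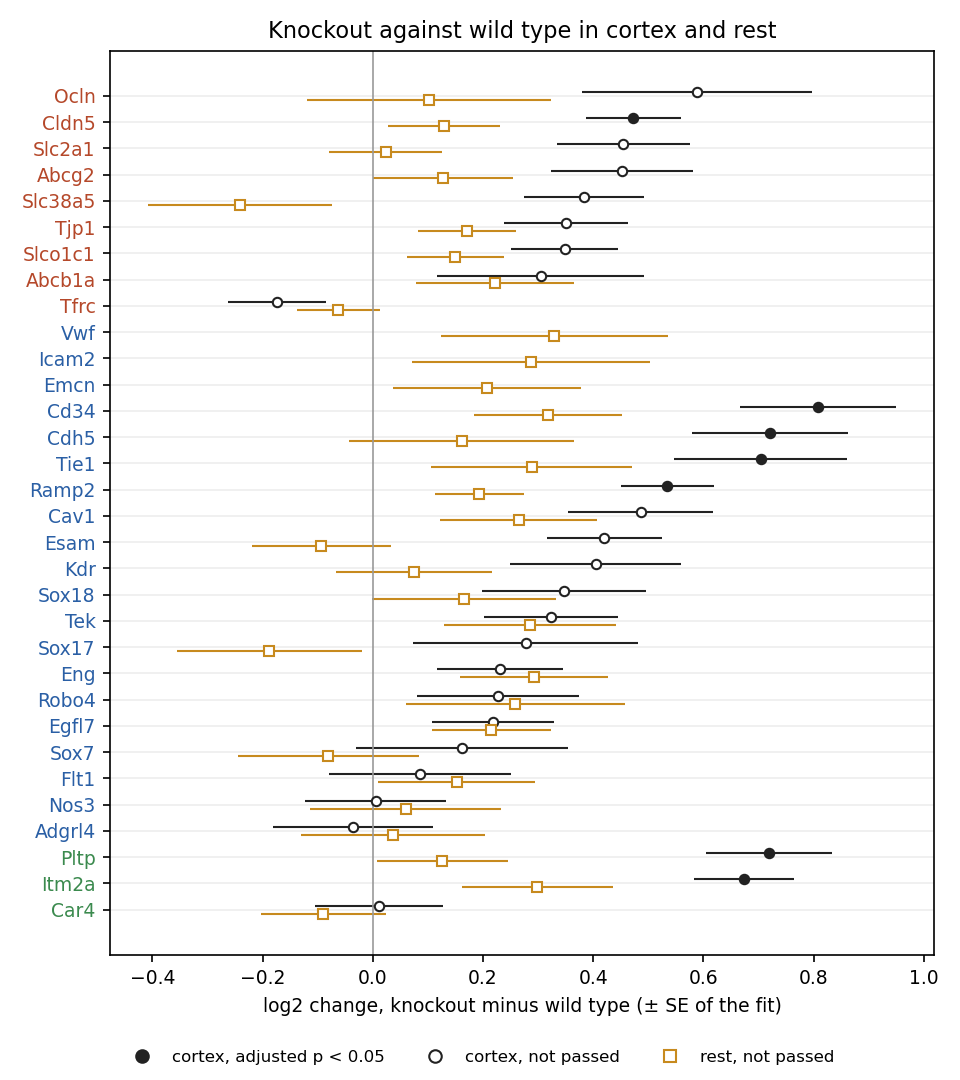
Log2 change between knockout and wild type (x axis, ± SE of the fit) for each endothelial gene in cortex on the A chip (circles) and in rest (squares), by the brightest tested probe set in cortex. Filled circles passed at an adjusted p under 0.05 and no rest value did; Slc2a1 is drawn by its brightest probe set, at 0.46, while the probe set that passed had 0.49. Most circles lie to the right of their squares.

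Whether the knockout effect differed between rest and cortex was tested in a joint fit over the 11959 probe sets tested in both tables, of which 0.0502% were called. None of the 40 endothelial probe sets passed, and 11 had an unadjusted p under 0.05, all lower in rest (against 5.74% of all probe sets). The effect was lower in rest for 31 of the 40, with a median difference of -0.25 against 0.01 over all. The lowest limma adjusted p was 0.241, for Pltp, with a difference of -0.59 (SE 0.181). The largest difference was that of Slc38a5, -0.62 (SE 0.196, limma adjusted p = 0.256), from 0.38 in cortex to -0.24 in rest. Esam also went from above to below 0, at 0.42 and -0.093, a difference of -0.51 (SE 0.162, limma adjusted p = 0.257). Slc2a1 had -0.45 (SE 0.137, limma adjusted p = 0.243) by the probe set that passed in cortex, Cldn5 -0.34 (SE 0.137, limma adjusted p = 0.389) and Ramp2 -0.34 (SE 0.108, limma adjusted p = 0.258). Tek, at -0.039 (SE 0.19, limma adjusted p = 0.965), and Abcb1a, at -0.084 (SE 0.24, limma adjusted p = 0.939), lay near 0. Tissue and array type change together between these tables and cannot be told apart. The joint fit took the arrays as independent, although whether cortex and rest came from the same animals is not given.

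Barrier genes were then set against pan-endothelial genes on each array, as the mean log2 level of Cldn5, Slc2a1, Slco1c1 and Abcb1a minus that of the pan-endothelial genes listed on all 6 arrays. Only the change of this contrast between arrays can be read, since levels of different probe sets are not comparable. In cortex, with 15 pan-endothelial genes, the contrast was 1.38, 1.32 and 1.32 in the wild type and 1.47, 1.45 and 1.15 in the knockout. Knockout replicates 1 and 2 lay above every wild-type array and knockout replicate 3 below every one. The means were 1.34 ± 0.0371 (SD, n = 3) and 1.36 ± 0.178 (SD, n = 3), a difference of 0.017, which is smaller than the SD of either group. Without knockout replicate 3 the difference was 0.12. Barrier genes were 0.40 higher and pan-endothelial genes 0.38 higher in the knockout on this log2 scale.

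In rest, with 20 pan-endothelial genes, the contrast was 1.69, 1.67 and 1.80 in the wild type and 1.67, 1.74 and 1.63 in the knockout, and the groups overlapped. The means were 1.72 ± 0.0678 (SD, n = 3) and 1.68 ± 0.0522 (SD, n = 3), a difference of -0.041, again within the spread. Barrier genes were 0.13 higher and pan-endothelial genes 0.17 higher. The B chip holds none of the 4 barrier genes.

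**Figure D3:**
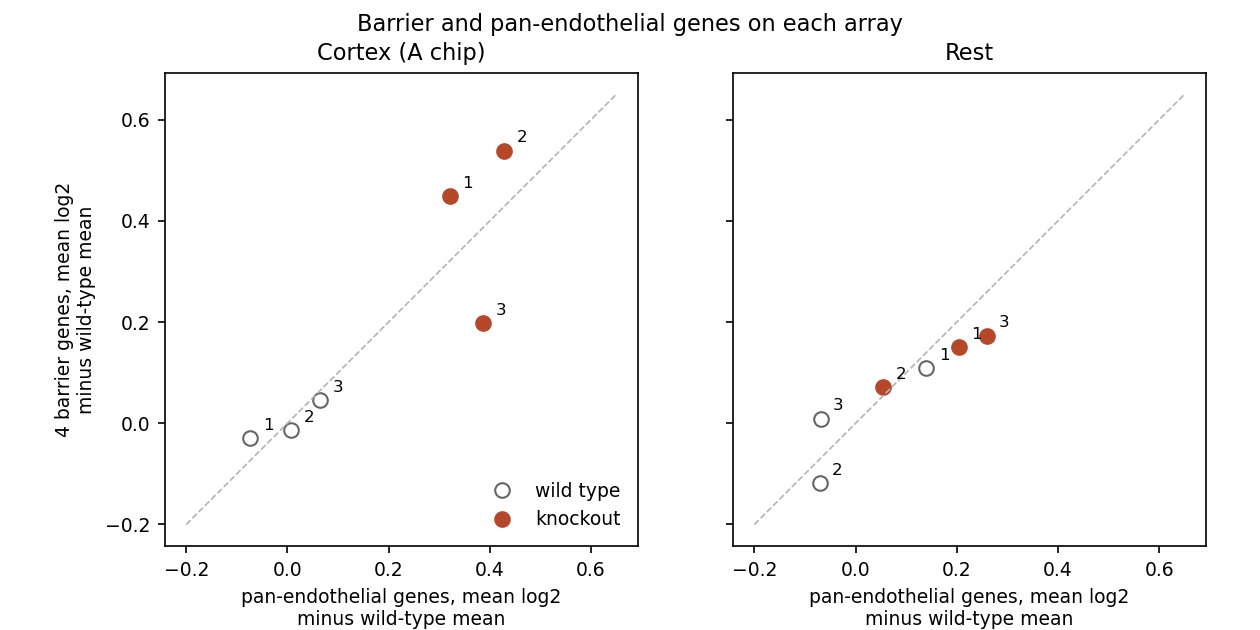
Mean log2 level of the 4 barrier genes (y axis) against that of the pan-endothelial genes (x axis) on each array, both minus the wild-type mean, for cortex (left) and rest (right); open circles are wild type, filled circles knockout, numbers the replicates, and the dashed line marks equal change. In cortex knockout replicates 1 and 2 lie above the line and replicate 3 below it, and the knockout means are 0.40 for barrier and 0.38 for pan-endothelial genes.

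Genes that act on or beside the endothelium were read from further lists, which share Sox17, Slc2a1 and Tfrc with the 36. Over all genes, 2.96% of the 7274 tested on the A chip, 0.363% of the 4408 on the B chip and 0.198% of the 11093 in rest had a probe set that rose. Of 18 vessel growth factor genes and partners tested on the A chip, 2 rose and 0 fell, with a median of 0.085. Nid2, a basement membrane protein, went from 71, 80.7 and 95.9 to 163.3, 174 and 152.6 (log2 change 0.87, SE 0.135, limma adjusted p = 0.00525). Aplnr, the apelin receptor of sprouting vessels, went from 294.4, 354.8 and 290.1 to 471.2, 476.2 and 457 (log2 change 0.56, SE 0.0989, limma adjusted p = 0.0107). Knockout arrays were above wild-type arrays for both of these probe sets. The dimmer Aplnr probe set gave 0.48 with overlap and did not pass (limma adjusted p = 0.179). In rest 0 of 23 passed, with a median of -0.014, and the lowest p was that of the Notch ligand gene Dll1 at -0.47 (limma adjusted p = 0.266).

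Of 10 genes of Wnt and Norrin signalling tested on the A chip, 2 rose and 0 fell (median 0.22, Sox17 included). Apcdd1, a Wnt inhibitor that is itself a target of the pathway in brain endothelium, went from 357.5, 316.1 and 380.5 to 513, 561.9 and 619.2 (log2 change 0.66, SE 0.102, limma adjusted p = 0.00519). Fzd6, a frizzled receptor, went from 79, 79.2 and 98.9 to 160.2, 142.9 and 146.6 (log2 change 0.71, SE 0.131, limma adjusted p = 0.0139). The knockout arrays were the higher ones for both of these probe sets. The other Apcdd1 probe sets of this chip did not pass, at 0.47, 0.81 and 0.61 (limma adjusted p = 0.105, 0.0574 and 0.25), the last with overlap. Fzd4, the Norrin receptor, and Lrp5, its coreceptor, were blank on all arrays of this chip. On the B chip Fzd4 read 327.1 and 345.1 in the wild type and 339 and 344.2 in the knockout. Its log2 change there was 0.023 (SE 0.21, limma adjusted p = 0.995). Wnt7a, a ligand that neural cells send to brain endothelium, read 118.7, 107.4 and 112.1 in the wild type and 92.7, 91.5 and 89.3 in the knockout, with every knockout array lower and a log2 difference of -0.26 that did not pass (SE 0.12, limma adjusted p = 0.323). In rest 0 of 15 passed (median 0.027), and Wnt7a was again lower on every knockout array, at 242.7, 204.4 and 182.8 against 141.6, 162.2 and 139 (log2 difference -0.46, SE 0.14, limma adjusted p = 0.268). The lowest p there was that of Tnfrsf19, a receptor of the tumour necrosis factor family, at 0.60 (limma adjusted p = 0.171).

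Of 8 junction and vesicle transport partners tested on the A chip, 3 rose and 0 fell (median 0.44). These were Cavin1 (log2 change 0.95, limma adjusted p = 0.00448) and Cavin2 (0.57, adjusted p = 0.0389), coat proteins of caveolae, and Cgnl1 (0.69, adjusted p = 0.041), a junction protein. In rest 0 of 13 passed (median 0.027). The lowest p values there belonged to Mfsd2a, a lipid carrier that restrains vesicle transport across the barrier, and Plvap, a protein of vesicle diaphragms found in leaky vessels. Mfsd2a read 495.2, 452.6 and 483.5 in the wild type and 308.9, 274.1 and 422.7 in the knockout, with a log2 difference of -0.51 (SE 0.145, limma adjusted p = 0.241). Plvap read 135.1, 216.9 and 207 against 335.4, 335.4 and 238.9, with a log2 difference of 0.67 (SE 0.192, limma adjusted p = 0.247). The groups were apart for both genes and neither passed. In cortex Plvap had a log2 change of -0.27 over 2 wild-type and 3 knockout A chip arrays, with overlap (SE 0.236, limma adjusted p = 0.649). Mfsd2a on the B chip read 835.9, 811 and 982.8 against 727.9, 769.2 and 807.3, apart by a narrow gap (log2 change -0.18, SE 0.138, limma adjusted p = 0.871).

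Of 11 endothelial transcription factor genes tested on the A chip, 2 rose and 0 fell (median 0.33). Foxc1, a forkhead factor also made by pericytes and meninges, read 39.9 and 40 on the 2 wild-type arrays that list it and 133.4, 105.3 and 129.4 in the knockout (log2 change 1.30, SE 0.16, limma adjusted p = 0.0019). Klf4, a flow-responsive factor, read 30.7, 25.2 and 29 against 80.9, 64.6 and 46.9 (log2 change 0.83, SE 0.178, limma adjusted p = 0.0298). Knockout arrays were higher without overlap in both. In rest 0 of 17 passed (median 0.13), with Foxc1 closest at 0.78 (SE 0.133, limma adjusted p = 0.052). Of 13 oxygen-responsive genes on the A chip, 1 rose, Slc2a1 itself, and the median was 0.032 with Slc2a1 and Tfrc among them; in rest 0 of 15 passed (median -0.039).

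On the B chip 0 of 7 growth factor genes, 0 of 4 Wnt and Norrin genes, 0 of 6 junction partners and 0 of 3 transcription factors passed, with median log2 changes of 0.099, 0.34, 0.072 and 0.36.

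Markers of other cells of the vessel wall and the brain surface moved with the endothelial genes in cortex, and their part in the result was not tested. Of 8 pericyte and smooth muscle markers tested, 3 rose: Pdgfrb, the receptor that recruits pericytes (log2 change 1.16, limma adjusted p = 0.0207), Vtn, vitronectin (0.99, adjusted p = 0.00016), and the myosin kinase gene Mylk (0.78, adjusted p = 0.0236, by its dimmer probe set; 0.34, adjusted p = 0.374, by the brighter). Cspg4, which encodes the pericyte and oligodendrocyte precursor proteoglycan NG2, did not pass, at 123.5, 119.9 and 105.4 in the wild type and 98.9, 84.7 and 80.4 in the knockout by its brighter probe set. Its knockout arrays all lay below the wild type (log2 difference -0.35, SE 0.132, limma adjusted p = 0.226), its dimmer probe set gave -0.0023, and Notch3, a receptor of mural cells, had 0.023. Rgs5 did not pass by any probe set, with 0.31 by the brightest and groups apart (limma adjusted p = 0.0814). Abcc9 and Higd1b had 0.42 and 0.38 and did not pass (limma adjusted p = 0.146 and 0.351). The median was 0.36. The summed signal of 7 genes, of which Rgs5 and Vtn were the brightest, ranged from 1861.4 to 1961.4 in the wild type. In the knockout it ranged from 2724.9 to 2911.7. Acta2, Anpep, Cnn1, Kcnj8, Myh11 and Tagln were blank. Of 11 meningeal and fibroblast markers, 8 rose, with a median of 1.34 and a summed signal of 10 genes of 6409.5 to 6923 against 11789.1 to 14174.8. The collagen gene Col3a1 led them with 2.01 (limma adjusted p = 2.78e-06).

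Of 11 microglia and macrophage markers, 8 rose (median 0.68), with sums over 9 genes of 2414.6 to 2753.6 in the wild type and 3969.9 to 4506.4 in the knockout, while Cd163 and Trem2 were blank. Among those that rose, the macrophage receptor gene Mrc1 had 1.20 (limma adjusted p = 0.000839). Cx3cr1, P2ry12 and Lyve1 did not pass, with overlapping groups and log2 changes of 0.50, -0.0020 and -0.25 (limma adjusted p = 0.285, 0.996 and 0.506). Of 12 astrocyte markers, 4 rose (Aqp4, Gja1, Gjb6 and Gfap), with a median of 0.28 and sums of 8500.2 to 9025.1 and 10254.4 to 11933.5. Gfap passed only by its dimmer probe set (0.89, limma adjusted p = 0.00901), while the brighter gave 0.53 with overlap (adjusted p = 0.0976). By brightest probe set 10 of the 12 changes were above 0, with Kcnj10 at -0.072 and Slc1a3 at -0.13. The water channel gene Aqp4 of the astrocyte endfeet around vessels had 0.53 by its brightest probe set (limma adjusted p = 0.00875). The sums for the 26 endothelial genes listed on all arrays were 6297.7 to 7136.4 in the wild type and 8520.4 to 9408.7 in the knockout, so for each of these 5 lists every knockout array lay above the wild type.

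Other markers did not pass on the A chip. The 2 red cell genes tested had a median of -0.19 and summed signals of 706.1 to 720 in the wild type and 491.5 to 703.9 in the knockout, and Hba-a1, an alpha globin gene, was blank. The 2 choroid plexus genes tested were Folr1 (log2 change 1.29, limma adjusted p = 0.0539) and Ttr (0.60, adjusted p = 0.312), with wild-type replicate 2 low for Ttr at 2016.7. On the B chip 2 of 4 choroid plexus genes (Kcnj13 and Sulf1) and 2 of 2 meningeal genes (Tbx18 and Slc13a4) rose. The 1 pericyte marker and 5 astrocyte markers tested there did not pass. Of 3 cortical neuron markers tested with A chip arrays and 4 with B chip arrays, 0 passed. On the A chip all 3 changes were above 0, with a median of 0.39. On the B chip 3 of 4 were above 0, with a median of 0.065. Of 10 hindbrain and cerebellar markers on the A chip only Cbln1 was tested (-0.073, limma adjusted p = 0.893), and Barhl1, En1, Hoxb2, Hoxb3, Hoxb5 and Hoxc4 were blank.

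In rest only meningeal markers passed, 5 of 14 (Tbx18, Slc6a13, Col3a1, Lum and Dcn; median 0.70), with sums over 13 genes of 9057.8 to 14892.3 in the wild type and 14271.9 to 17520.6 in the knockout. The other marker lists had 0 calls, with medians of 0.045 for 9 pericyte and smooth muscle genes, 0.31 for 10 microglial genes, -0.05 for 12 astrocyte genes, -0.17 for 3 red cell genes, 0.23 for 7 choroid plexus genes, -0.0065 for 4 cortical neuron genes and -0.45 for 6 hindbrain genes. The 32 endothelial genes summed to 11236.1 to 12961.6 in the wild type and 12598.5 to 14068.3 in the knockout, with overlap.

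**Figure D4:**
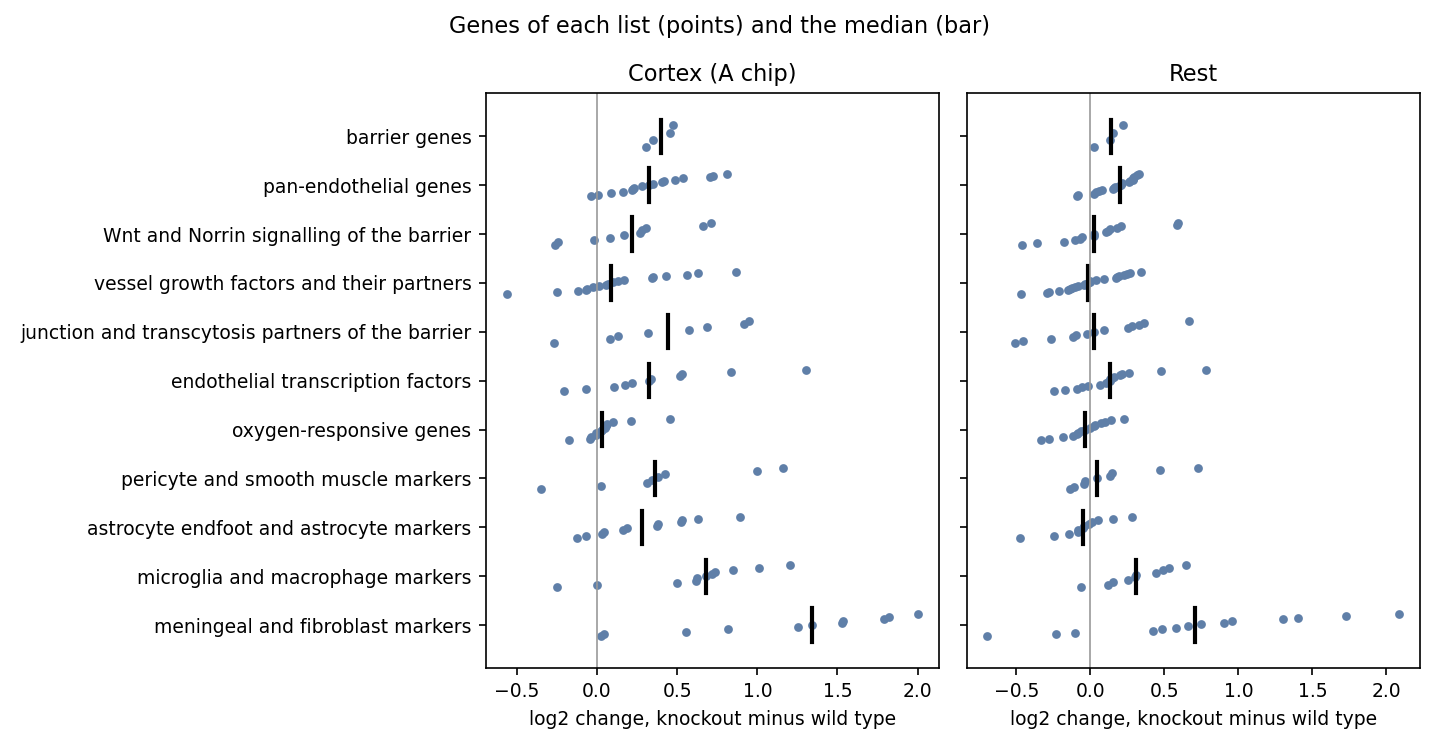
Log2 change between knockout and wild type (x axis) for each tested gene of the barrier and pan-endothelial groups, the pathway lists and 4 marker lists, as points with a bar at the list's median, in cortex on the A chip (left) and in rest (right). In cortex the medians are 0.40 for barrier and 0.32 for pan-endothelial genes, 1.34 for meningeal and 0.68 for microglial markers, and in rest 0.14, 0.20, 0.70 and 0.31.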

How the data were processed

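RNA of 18 samples was hybridised to Affymetrix arrays in 3 tables of 6. The deposited intensity values are probe set signals on a linear scale that the authors made with MAS5, per the submitters' processing notes, which give no version. RNA was extracted with TRIZOL, per the labels' protocols. Blanks are unexplained.

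Arrays were scaled to 1 mean (2% of values trimmed from either end) over probe sets listed on all 6 arrays of a table (factors 0.9477 to 1.059). Probe sets listed on at least 2 arrays of each genotype were tested with limma 3.58.1 (R 4.3.3) on log2(signal + 16), using lmFit and eBayes with an intensity trend and Benjamini-Hochberg adjustment over the table. The joint fit of the 2 large tables added the interaction of table and genotype. On simulated data, 83% of changes of 1 log2 unit and 100% of changes of 2 were recovered for the A chip (B chip 71% and 97%, rest 79% and 95%). Changes were planted only at these sizes, in probe sets listed on all 6 arrays. Recovery of smaller changes was not measured. Precision is limited by the number of arrays. The design text names 3 animals of each genotype for cortex; whether the rest samples came from separate animals is not given in the sources used here, so their p-values may measure technical spread.

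Genes were named from the array annotation through RefSeq symbols; 2 probe sets shared by Ramp2 and Vps25 were left out. The genes and lists were chosen with earlier results of these data known. Named in full were the 4 barrier genes, Pecam1, Cdh5, Kdr and Tek, every gene that passed, up to 4 genes of a list (the largest changes among those that passed, otherwise the lowest p), genes blank throughout, and the highest and lowest; other names were chosen after their values were seen. List counts take a gene as changed when any of its probe sets passed; medians and sums take its brightest probe set, sums only those listed on all 6 arrays. Alternatives covered scaling, offsets of 1 and 64, filters, blanks, eBayes settings, the replicate block, the sex-marker term, an adjusted p of 0.10 and leaving out each array. Figures were drawn with matplotlib 3.10.9.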

Additional observations from a re-analysis of the deposited data

How the results depend on the processing

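The 0 calls of the endothelial probe sets in rest and on the B chip held under every alternative run. So did the 0 calls in the test of the difference between tables. The sex-marker term leaves 1 knockout array, so its count on the A chip is not read. Under the other alternatives the A chip count of 10 ranged from 5 to 15. Beside it, 186 to 607 probe sets were called over the whole table (364 with all arrays). It was 5 to 10 when 1 array was left out (6 without wild-type replicate 1, with 218 over the table, and 5 without knockout replicate 2, with 186). The contrast of barrier against pan-endothelial genes in rest moved from -0.041 to -0.10 with the wider list of barrier genes, and on the B chip it could not be computed. In cortex this contrast, which has no test, lay between -0.039 and 0.12 over all alternatives, so its sign is not settled. The replicate numbers were not taken as pairs, since not every same-numbered pair of arrays deviated together (correlations for the A chip 0.0093, 0.0189 and -0.0088; for the B chip 0.1595, 0.0721 and 0.1413; for rest 0.0227, 0.0672 and 0.2506). Every B chip array correlated best with its own number, a hint from the data alone, which was not so for the A chip or rest. With the replicate block on the A chip 9 probe sets were called, Slc2a1 being lost at limma adjusted p = 0.0794. Slc2a1 and Tie1 also lost their calls with blanks set to a low signal (limma adjusted p = 0.0549 and 0.0648) and Tie1 with quantile normalization (0.0517).

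Changes of sign occurred in uncalled values. With the sex-marker term, Abcb1a in cortex was -0.034, the dimmer Cdh5 probe set -0.18 in cortex and 0.063 in rest, and the differences between rest and cortex were 0.15 for Tek, 0.39 for Abcb1a and 0.25 for the dimmer Cdh5 probe set. With quantile normalization these were 0.022 for Tek, 0.0025 for Abcb1a and, for Cdh5 in rest, 0.030, or 0.0022 with median centring. When 1 array was left out, the values ranged from -0.020 to 0.22 for the dimmer Cdh5 probe set in cortex. In rest they ranged from -0.14 to 0.12 for that probe set, -0.042 to 0.37 for the brighter one, -0.025 to 0.091 and -0.050 to 0.10 for 2 Slc2a1 probe sets, -0.037 to 0.19 for Kdr and -0.0053 to 0.24 for 1 Pltp probe set. The differences between tables ranged from -0.16 to 0.067 for Tek, -0.25 to 0.0062 for Abcb1a and -0.23 to 0.039 for the dimmer Cdh5 probe set.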
